A study of Mus musculus with 2 samples.

Results

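Lef1+Tcf7+ CD8 T cells were examined in the liver metastases of mice injected with colorectal cancer cells. They are the CD8 T cells that carried RNA for Lef1 and Tcf7, the transcription factors of naive and stem-like T cells, and none for Pdcd1, which encodes the inhibitory receptor PD-1. Cells were chosen by their measured RNA: a cell was taken when it had at least 2 UMIs (unique molecular identifiers, each standing for 1 captured RNA molecule) of Cd3d, Cd3e and Cd3g together and at least 1 of Cd8a and Cd8b1. It also needed at least 1 UMI of Lef1 and of Tcf7, none of Cd4, Pdcd1, Foxp3, Ncr1, Csf1r or Cd79a, and under 3 of the cell cycle genes Mki67, Top2a, Birc5, Pclaf and Cdk1. The rule found 196 of 19999 filtered cells, 61 of 9814 in Ctrl and 135 of 10185 in KD. Since it used measured RNA, the levels of these genes in the chosen cells describe the choice and are no result.

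Both libraries came from C57BL/6 mice, injected into the spleen at 6 to 8 weeks of age and killed 2 weeks later, and CD45+ cells were purified from their liver metastases. Ctrl mice received MC38-LM3b-shScramble, a liver-metastatic derivative of the MC38 colorectal cancer line with a scrambled short hairpin RNA, and KD mice received MC38-LM3b-shSLAMF3, the same derivative with a hairpin against SLAMF3, which Ly9 encodes. The hairpin was in the injected tumor cells, so the T cells were those of unmodified hosts, and each group rested on 1 tumor line. Each library pooled 3 mice, there was 1 library per group, and cells of a library are not replicates. No test between Ctrl and KD was therefore possible, and every interval below is a 95% interval that covers counting error only.

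Naive CD8 T cells circulate between blood and lymphoid organs, guided by the chemokine receptor Ccr7 and the sphingosine phosphate receptor S1pr1. They survive on interleukin 7, seen through Il7r, and are kept quiescent by factors such as Klf2, Foxo1, Foxp1, Bach2 and Satb1. Central memory, virtual memory and stem-like exhausted CD8 T cells share Lef1 or Tcf7 and part of this program, and are told from naive cells by genes such as Cd44, Il2rb, Cxcr3, Ccl5 and, for exhausted cells, Tox.

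The Lef1+Tcf7+ cells held a median of 4856 UMIs in Ctrl (range 1996 to 10751) and 4970 in KD (2048 to 17469), from median counts of 1901 and 1937 genes. Summed over cells they gave 305113 and 730556 UMIs, so a gene at 0 may still stand at up to 9.83 CPM (UMIs of a gene per 1000000 UMIs) in Ctrl and 4.11 in KD, the value of 3 UMIs. Mitochondrial RNA was 2.04% and 2.81% of their UMIs. The libraries shared 27 cell barcodes, none of them in these cells. PD-1+ CD8 T cells, used for comparison, numbered 993 and 320, with median UMIs of 6047 and 5899. Cytotoxic CD8 T cells, with Gzma or Gzmb and none of Pdcd1, Lef1 and Tcf7, numbered 243 and 116, with medians of 4554 and 4468.

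Lef1+Tcf7+ cells made up a larger share of CD8 T cells in the KD library. In Ctrl they were 61 of 2754 CD8 T cells, or 2.21% (1.70% to 2.84%). In KD they were 135 of 1201, or 11.2% (9.51% to 13.2%). The difference was 9.03 percentage points (7.19 to 11.0), a 5.07-fold higher share. Against all T cells the shares were 1.76% and 5.88%, and against all filtered cells 0.622% (0.476% to 0.798%) and 1.33% (1.11% to 1.57%). The share of cycling cells, 43.5% of CD8 T cells in Ctrl and 37.7% in KD, left the order as it was: among non-cycling CD8 T cells that passed the exclusions, the share was 4.16% (3.20% to 5.31%) against 20.1% (17.2% to 23.4%). Among those without a Pdcd1 UMI it was 12.9% and 38.6%. Of the CD8 T cells, PD-1+ non-cycling cells made up 36.1% and 26.6%, and cytotoxic cells 8.82% and 9.66%. The mice behind each value were pooled, so the spread between mice is not known.

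**Figure D1:**
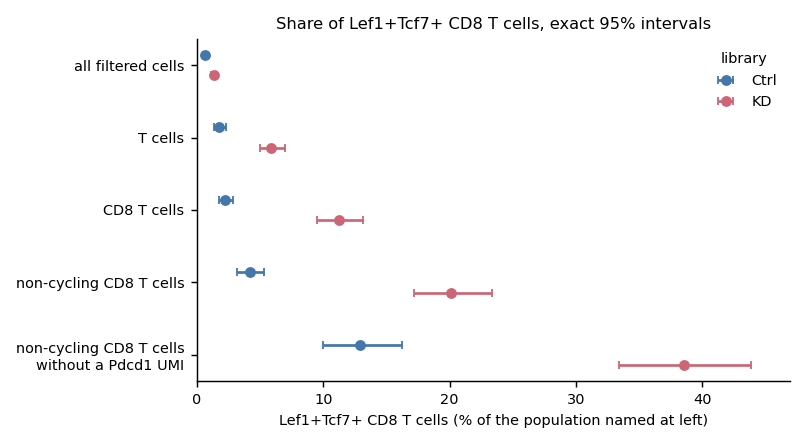
Share of Lef1+Tcf7+ CD8 T cells in the Ctrl and KD libraries, as a percent of the population named on the vertical axis. Points are shares in 1 library and bars are exact 95% intervals for counting error. The KD point lies to the right of the Ctrl point for each population, from 1.33% against 0.622% of all filtered cells to 38.6% against 12.9% of non-cycling CD8 T cells without a Pdcd1 UMI.

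The gate can miss cells whose Lef1 or Tcf7 RNA was not captured. When each cell was thinned to 1500 UMIs before the gate, 13 of 1407 CD8 T cells (0.924%) passed in Ctrl and 20 of 519 (3.85%) in KD. With only 1 of Lef1 and Tcf7 required, 5.81% of Ctrl and 17.8% of KD CD8 T cells passed. With 2 or more UMIs of both required, the shares were 1.23% and 6.74%. Cells just outside the rule differed in their makeup. Cells with a Lef1 UMI and none of Tcf7 (50 in Ctrl, 49 in KD) had a Ccl5 UMI in 88.0% and 79.6% and an Il7r UMI in 24% and 49.0%. The 11 Ctrl and 8 KD cells kept out by a single Pdcd1 UMI had a Tox UMI in 100% and 87.5% of cells. The 6 Ctrl and 9 KD cells just inside, with 1 UMI each of Lef1 and Tcf7, had an Il7r UMI in 16.7% and 33.3%, and the 19 and 49 cells with 3 or more of both had one in 78.9% and 79.6%.

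Some genes of recirculation and quiescence that the rule did not use were more often seen here than in PD-1+ CD8 T cells. Satb1, a chromatin organizer of naive T cells, had a UMI in 88.5% of them in Ctrl and 92.6% in KD, against 27.8% and 30% of PD-1+ cells. Il7r was seen in 65.6% and 74.8%, against 15.2% and 17.8% of PD-1+ cells and 13.6% and 13.8% of cytotoxic cells, Ccr7 in 42.6% and 43.0% and S1pr1 in 39.3% and 36.3%. These values lie above free RNA: macrophages, with median UMIs of 8854 and 9417, had an Il7r UMI in 14.4% and 8.48% of cells, Ccr7 in 3.15% and 1.80%, and S1pr1 in 0.484% and 2.10%. At 1500 UMIs per cell, Il7r was seen in 41.0% (28.6% to 54.3%) of the Lef1+Tcf7+ cells in Ctrl and 51.1% (42.4% to 59.8%) in KD, against 2.79% and 1.40% of macrophages. Dapl1 and Igfbp4, genes of naive and early memory T cells, were seen in 24.6% and 22.96%, and in 18.03% and 17.04%, of the Lef1+Tcf7+ cells. CD4 T cells chosen by Lef1 and Tcf7 in the same way numbered 9 in Ctrl and 40 in KD. Satb1 was seen in 77.8% and 67.5% of them, Il7r in 55.6% and 72.5%, Ccr7 in 22.2% and 35%, and S1pr1 in 66.7% and 37.5%. In B cells Satb1 was seen in 76.9% and 77.8% and Ccr7 in 43.6% and 44.2%. These genes are thus not particular to Lef1+Tcf7+ CD8 T cells.

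RNA of memory and effector cells was also present, so the label naive-like covers only some of the cells. Ccl5, a chemokine of memory and effector CD8 T cells, had a UMI in 59.0% of cells in Ctrl and 49.6% in KD, against 9.62% and 6.44% of B cells, which should lack it (median UMIs 2694 and 2724). At 1500 UMIs per cell the shares were 41.0% and 40.0%, against 3.90% and 3.29% of B cells. Nkg7, a protein of cytotoxic granules, was seen in 77.0% and 80.0%, and Ly6c2, a surface protein of memory CD8 T cells, in 72.1% and 53.3%. Tox, a factor of exhausted and of some memory T cells, was seen in 47.5% and 56.3%. Granzymes were seen in few cells. Gzma was seen in 11.5% and 8.89% of cells and Gzmb in 11.5% and 10.4%, and at 1500 UMIs Gzmb was seen in 3.28% (2 of 61 cells, upper bound 11.3%) and 2.96% (0.813% to 7.41%), against 1.95% and 0.693% of B cells, a difference that was not detectable at this depth. The receptors Lag3 and Havcr2 gave 16.4 and 16.4 CPM and 3.28 and 9.58 CPM, against 167 and 157 CPM and 286 and 243 CPM in PD-1+ cells. Tigit, another inhibitory receptor, was seen in 18.03% and 8.15% of cells, against 30.1% and 32.8% of PD-1+ cells. At 1500 UMIs it was seen in 8.20% and 2.96%, against 9.62% and 15.3%. The cells are therefore called by their rule, Lef1+Tcf7+ CD8 T cells.

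**Figure D2:**
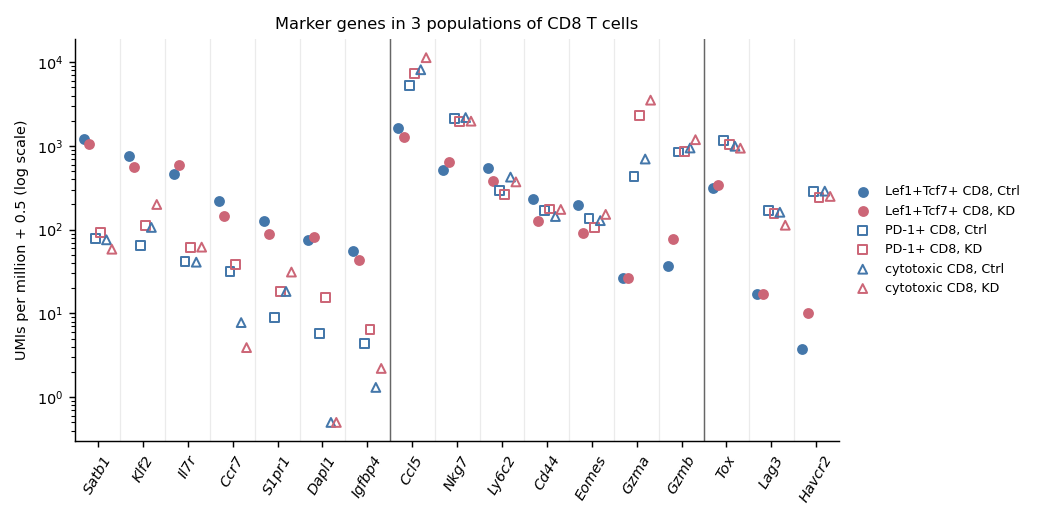
Level of 17 marker genes (CPM + 0.5, log scale) in Lef1+Tcf7+, PD-1+ and cytotoxic CD8 T cells of each library. Each symbol is the summed UMIs of 1 population in 1 library, with no error shown. The 7 genes at left are higher in Lef1+Tcf7+ cells than in the other populations in both libraries, as for Satb1 at 1200 and 1058 against 77.3 and 92.6 CPM in PD-1+ cells, while Gzma, Gzmb, Lag3 and Havcr2 are lower. Cytotoxic cells were chosen for a UMI of Gzma or Gzmb, so their levels of these 2 genes follow from the choice.

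Over all genes with at least 50 UMIs in Lef1+Tcf7+ and PD-1+ cells together, 4.84% of 9506 were at least 2-fold higher in the Lef1+Tcf7+ cells in both libraries and 8.14% were at least 2-fold lower. Of 19 quiescence genes, 10 were higher by that measure and 0 lower, with a median log2 ratio of 1.76 in Ctrl and 1.30 in KD, against -0.08 and -0.02 over all genes. Of 16 recirculation genes that could be compared, 4 were higher, among them Ccr7 and S1pr1, and 2 were lower. Klf2, which drives the genes of lymphocyte recirculation, was higher by 3.55 in Ctrl and 2.32 in KD on the log2 scale, Foxp1 by 2.88 and 2.59, and Bach2, a repressor of effector genes, by 2.01 and 2.04. Of 35 memory and cytotoxic genes, 33 could be compared, 23 were lower and 1, Cxcr3, was higher. Of 26 genes of activation and exhaustion, 25 could be compared, 16 were lower and Id3 was higher. Among 25 genes of cytokine sensing and survival, 8 were higher and 0 lower. The 8 included Il7r, by 3.48 and 3.25, the interleukin 6 receptor Il6ra, by 3.86 and 3.09, and the survival factor Bcl2, by 2.86 and 2.31. The cells were picked for their RNA, so these counts are a description of the gate. Against cytotoxic CD8 T cells, 4.18% of 6385 genes were at least 2-fold higher and 6.48% at least 2-fold lower in both libraries.

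The genes with the highest ratio over PD-1+ cells in both libraries were led by Rapgef4, an exchange factor for Rap GTPases, at 75.4 and 114 CPM against 0.776 and 2.48 CPM. Those that followed included Sh3pxd2a, Patj, Auts2, Nsg2, Neto2, Fgf13, Fam241a, St6gal1, Lef1 itself, Treml2, St8sia1, Satb1 and Ssbp2. Fgf13, a growth factor homolog that is not secreted, stood at 623 and 522 CPM against 22.3 and 29.7 CPM. Nsg2 stood at 121 and 136 CPM against 1.86 and 6.94 CPM, and St6gal1, a sialyltransferase, at 81.9 and 123 CPM against 3.88 and 6.94 CPM. At the other end of the ranking, beside Pdcd1, stood 12 genes with no UMI in the Lef1+Tcf7+ cells of either library, among them the granzyme gene Gzmf, at 97.4 and 19.8 CPM in PD-1+ cells, and Areg, a ligand of the epidermal growth factor receptor, at 61.0 and 24.3 CPM. Spp1, which encodes osteopontin, had 2 UMIs in Ctrl and 3 in KD, against 282 and 139 CPM in PD-1+ cells.

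Ccl5 divided the Lef1+Tcf7+ cells. In Ctrl, 25 cells (41.0%) had no Ccl5 UMI, 14 had 1 or 2, and 22 (36.1%) had 3 or more, with a median of 21 and a highest value of 44. In KD, 68 cells (50.4%) had none, 17 had 1 or 2, and 50 (37.0%) had 3 or more, with a median of 10.5 and a highest value of 131. The share with 3 or more was thus similar in both libraries, with intervals of 24.2% to 49.4% and 28.9% to 45.8%. This split was chosen after the values were seen. Some genes other than Ccl5 differed with it in the same direction in both libraries, and others did not. Igfbp4 stood at 128 CPM in Ctrl cells without Ccl5 and at 0 in those with 3 or more UMIs, and in KD at 79.9 and 6.59 CPM. Satb1 was lower in the cells with Ccl5, by a log2 ratio of -0.998 (-1.39 to -0.62) in Ctrl and -0.69 (-0.92 to -0.46) in KD. Cd44, the hyaluronan receptor that marks memory T cells, was higher in them by 2.80 (1.56 to 4.33) and 1.53 (0.82 to 2.29). S100a6 was higher by 2.32 and 2.46 and the inhibitory NK receptor gene Klrc1 by 2.97 and 1.96. Il2rb, the receptor chain for interleukins 2 and 15, was higher by 0.69 (-0.03 to 1.43) and 1.41 (0.95 to 1.89). The transcription factor genes Eomes and Tbx21 stood at -0.28 and -0.07 in Ctrl and 0.93 and 1.72 in KD, with intervals across 0 in Ctrl. Tox was higher in the cells with Ccl5 in Ctrl, by 0.87 (0.18 to 1.60), and lower in KD, at -0.52 (-0.92 to -0.13). Il7r stood at 0.01 and -0.56, S1pr1 at 0.45 and -0.27, Itga4 at 2.10 and -0.22, and Gzmb at 2.24 (-0.04 to 5.49) and -1.07 (-2.02 to -0.18). Klra7, a Ly49 receptor with close paralogs that can share reads, stood at 158 CPM in KD cells with Ccl5 and at 3.07 CPM in those without.

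**Figure D3:**
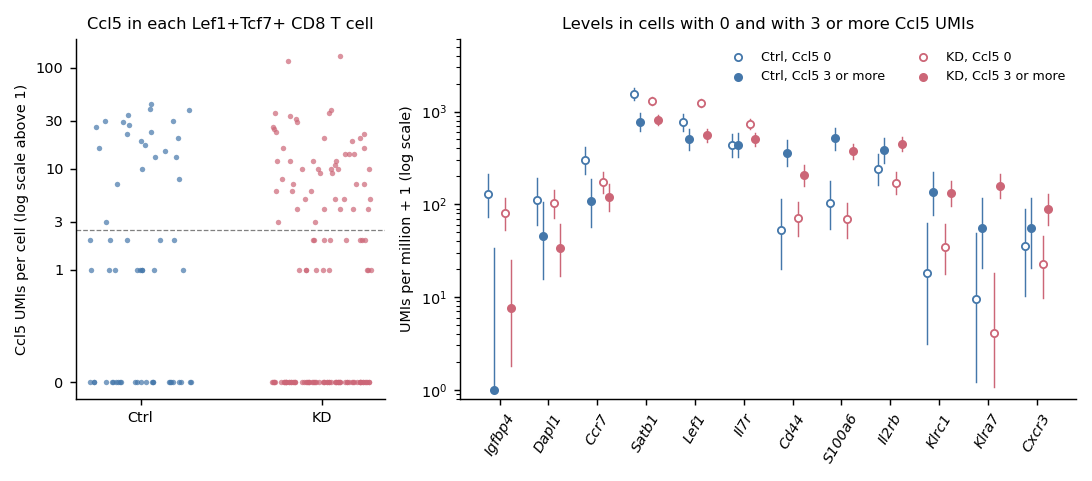
Left, Ccl5 UMIs in each of the 61 Ctrl and 135 KD Lef1+Tcf7+ cells, with a dashed line between 2 and 3 UMIs (log scale above 1). Right, level of 12 genes (CPM + 1, log scale) in cells with 0 (open) and with 3 or more (filled) Ccl5 UMIs, with exact Poisson 95% intervals. Igfbp4, Dapl1 and Satb1 are higher in cells without Ccl5 in both libraries, and Cd44, S100a6 and Klrc1 are higher in cells with it. For Dapl1 in Ctrl the interval crosses 0, at a log2 ratio of -1.31 (-3.15 to 0.27) for cells with 3 or more over 0 Ccl5 UMIs.

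Ccl5 and Nkg7 together reached 2 UMIs in 77.0% of the cells in Ctrl and 67.4% in KD, a difference of -9.64 points (-22.7 to 5.14). At 1500 UMIs per cell the shares were 50.8% and 43.7%. At 61 and 135 cells these differences lay within counting error.

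Between the libraries, the Lef1+Tcf7+ cells differed at few genes by much. Of 3321 genes with at least 50 UMIs over both libraries, 66 (1.99%) were at least 2-fold higher in KD and 56 (1.69%) at least 2-fold lower, 3.67% in either direction, with a median log2 ratio of -0.05. Under TMM scaling, which corrects for differences in composition, all ratios moved up by 0.07. The same measures were 0.941% and 1.62% of 9140 genes in PD-1+ cells, 1.34% and 1.76% of 5008 in cytotoxic cells, and 3.92% and 1.61% of 12643 in all CD8 T cells outside the gate. More UMIs stood behind a gene in those larger populations, so the percentages are not compared. The 10 genes highest in KD were S100a9, S100a8, Ifitm2, Wfdc17, Cd14, Zfp800, Selenop, Usp14, Nolc1 and Cyc1. In 1 KD cell each lay 26 of the 48 Wfdc17 UMIs, 21 of the 53 Ifitm2 UMIs and 25 of the 52 Selenop UMIs, while Zfp800, Nolc1, Usp14 and Cyc1 were spread over 37, 34, 33 and 31 KD cells. The 10 lowest included Ptprk, C1qc, H2-Eb1, Cd74, H2-Ab1, Hk2, Myb and H2-Aa.

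**Figure D4:**
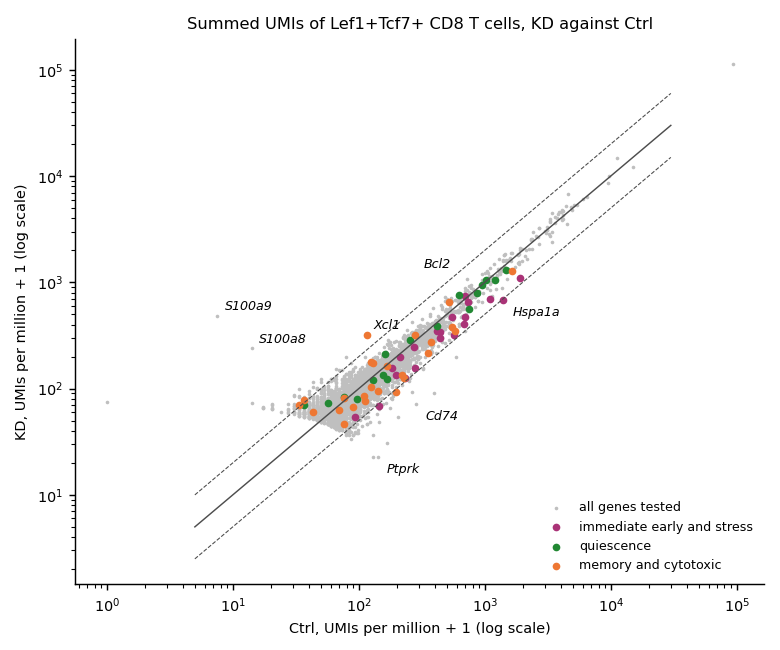
Level of each of the 3321 genes in the Lef1+Tcf7+ cells of KD against Ctrl (CPM + 1, log scales), with 3 gene lists in color. The solid line marks equal levels and the dashed lines a 2-fold difference. Most genes lie between the dashed lines, S100a8 and S100a9 lie far above them, and 19 of 20 immediate early and stress genes lie below the solid line.

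Among genes of the T cell program, Myb and Hk2 were lower in KD. Myb, a transcription factor of stem-like CD8 T cells, stood at 144 and 47.9 CPM (-1.59, -2.27 to -0.92), against 35.5 and 58.9 CPM in PD-1+ cells. In cells with 2 or more UMIs of both Lef1 and Tcf7 the Myb ratio was -0.67 (-1.68 to 0.39). Hk2, a hexokinase of activated T cells, stood at 128 and 35.6 CPM (-1.84). Ptprk, a receptor phosphatase, had 43 UMIs in only 4 Ctrl cells, of which 20 lay in 1 cell. Klk8, a serine protease gene named after its values were seen, had a UMI in 29.5% of cells in Ctrl and 61.5% in KD, and at 1500 UMIs per cell in 11.5% (4.74% to 22.2%) and 27.4% (20.1% to 35.7%), against 0% and 0.173% of B cells.

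No quiescence gene with enough UMIs differed 2-fold between the libraries. Of 19, 17 had enough UMIs, with log2 ratios from -0.46 to 0.92 and a median of -0.09. Over all genes 3.67% differed 2-fold, and none among 17 is close to that share. Foxp1 stood at 1013 and 1059 CPM (0.07, -0.13 to 0.26), Bach2 at 957 and 935 CPM (-0.03, -0.23 to 0.17) and Satb1 at 1200 and 1058 CPM (-0.18, -0.36 to 0.00). Klf2 was lower in KD, at 751 and 561 CPM (-0.42, -0.66 to -0.18), with a UMI in 45 of 61 and 101 of 135 cells. In PD-1+ cells Klf2 was higher in KD, at 64.2 and 113 CPM. Of 20 genes of recirculation, 13 had enough UMIs, 11 had a ratio below 0, against 55.3% of all genes, and the median was -0.22. Ccr7 stood at 220 and 144 CPM (-0.61, -1.07 to -0.15), and its ratio was 0.06 (-0.70 to 0.86) in the 35 Ctrl and 58 KD cells with under 3 UMIs of another lineage. Gpr183, a receptor for oxysterols, stood at 246 and 146 CPM (-0.75) and Cd69, which holds T cells in tissue, at 442 and 292 CPM (-0.60). S1pr1 stood at 128 and 87.6 CPM (-0.55, -1.14 to 0.07). Of the 13, 1 was at least 2-fold lower and 0 were 2-fold higher, against 1.69% and 1.99% of all genes.

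Of 25 genes of cytokine sensing and survival, 21 had enough UMIs. Of these, 0 were 2-fold higher and 1 was 2-fold lower, against 1.99% and 1.69% of all genes. The median was -0.02 and became 0.05 under TMM scaling. Il7r stood at 456 CPM in Ctrl and 586 in KD (0.36, 0.08 to 0.65). Bcl2, which blocks cell death, stood at 721 and 1083 CPM (0.59, 0.37 to 0.81), with a UMI in 44 of 61 and 108 of 135 cells, and its log2 ratio was 1.13 in PD-1+ and 1.52 in cytotoxic cells. Bcl2l11, which encodes the death factor BIM, stood at 325 and 156 CPM (-1.06, -1.46 to -0.65). In PD-1+ cells it stood at 191 and 245 CPM. Split by Ccl5, the Bcl2 ratio was 0.81 (0.44 to 1.21) in cells without Ccl5 and 0.14 (-0.17 to 0.45) in those with 3 or more UMIs. The Bcl2l11 ratio was -0.08 (-0.998 to 0.92) and -0.96 (-1.55 to -0.36).

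Immediate early and stress genes, which cells switch on quickly after a stimulus or heat, were mostly lower in KD. Of 20 genes, all 20 had enough UMIs and 19 had a ratio below 0, against 55.3% of all genes. Their median log2 ratio was -0.56, against -0.05, and 2 of them were at least 2-fold lower, against 1.69% of all genes. Hspa1a, an inducible HSP70 chaperone, had 428 UMIs in 39 of 61 Ctrl cells and 496 in 75 of 135 KD cells, or 1403 and 679 CPM (-1.05, -1.24 to -0.86). Its near-identical copy Hspa1b had 585 and 802 UMIs, or 1917 and 1098 CPM (-0.80, -0.96 to -0.65), and how reads were split between the copies is not known. Hsph1, Dnajb1 and Hsp90aa1, partner chaperones, had ratios of -0.76, -0.56 and -0.56, and Hspa8, the constitutive HSP70, had 0.12 (-0.11 to 0.35). Among transcription factors and their feedback genes, Fosb was at -1.10 (-1.72 to -0.48), Junb at -0.68 (-0.88 to -0.48), Egr1 at -0.78 and Nfkbia, the inhibitor of NF-kappaB, at -0.86. Fos and Jun stood at -0.08 and -0.15, with intervals across 0.

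The heat shock genes were concentrated in some cells. Summed over Hspa1a, Hspa1b, Hsph1, Dnajb1 and Hsp90aa1, a Ctrl cell had a median of 11 UMIs, with quartiles of 4 and 46, and a KD cell a median of 9, with quartiles of 3.5 and 19.5. At least 20 such UMIs were found in 41.0% of Ctrl cells (28.6% to 54.3%) and 25.2% of KD cells (18.1% to 33.4%). The medians lay close together, and the upper quartiles lay further apart. Cells with many such UMIs were also fewer in KD among PD-1+ and cytotoxic cells, where 49.3% and 20.9% of PD-1+ cells and 51.4% and 29.3% of cytotoxic cells had at least 20 UMIs. Over the whole list, 18 of 20 ratios were below 0 in both PD-1+ cells (median -0.26) and cytotoxic cells (median -0.39), against 55.9% and 55.1% of all genes with medians of -0.04 and -0.04. In all CD8 T cells outside the gate, cycling cells included, it was 12 of 20, with a median of -0.05, against 54.3% of all genes with a median of -0.03.

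The upstream sequences of the 2 HSP70 copies are shown because both genes carried a large part of this difference. These sequences lie before the start and do not bear on how reads were split between the copies. The 250 bases before each start, from RefSeq on GRCm38.p6, differ at 3 positions. Hspa1a lies at chr17:34972157-34972406 and Hspa1b at chr17:34959239-34959488, both on the minus strand, and capitals mark the only match to GAANNTTC, a pair of inverted heat shock factor units, searched on both strands (the motif is its own reverse complement).
Hspa1a: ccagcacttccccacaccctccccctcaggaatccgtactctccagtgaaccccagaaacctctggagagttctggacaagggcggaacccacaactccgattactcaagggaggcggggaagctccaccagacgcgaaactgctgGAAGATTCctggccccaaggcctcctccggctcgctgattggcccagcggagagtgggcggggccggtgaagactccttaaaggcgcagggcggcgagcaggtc
Hspa1b: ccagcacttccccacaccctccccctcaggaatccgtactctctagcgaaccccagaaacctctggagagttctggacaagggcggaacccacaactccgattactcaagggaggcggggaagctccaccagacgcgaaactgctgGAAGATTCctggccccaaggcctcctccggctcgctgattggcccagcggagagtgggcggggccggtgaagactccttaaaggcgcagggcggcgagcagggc
The match began 104 bases before the start in both. The same motif was found in 2199 of 32851 promoter windows (6.69%), so its presence is a description and shows no binding.

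**Figure D5:**
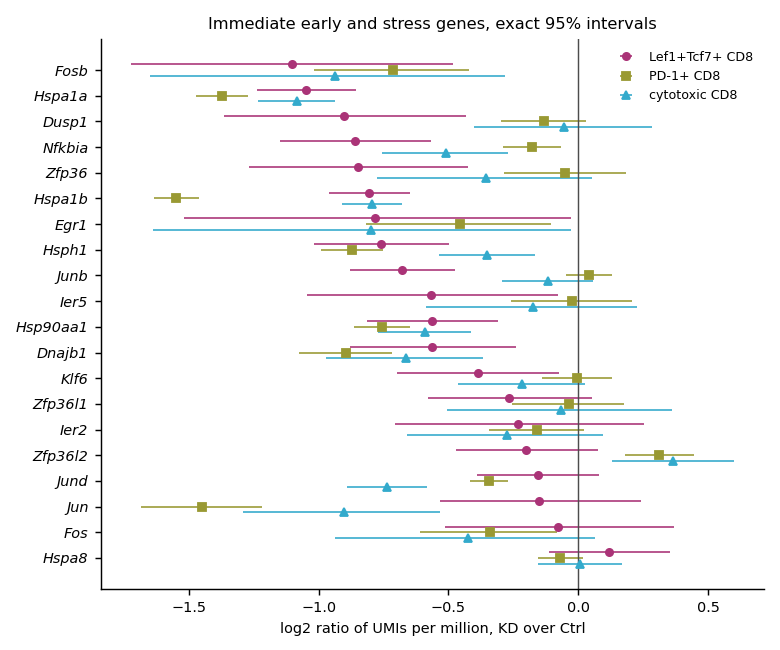
Log2 ratio of CPM, KD over Ctrl, for the 20 immediate early and stress genes in Lef1+Tcf7+, PD-1+ and cytotoxic CD8 T cells, with exact 95% intervals for counting error. In Lef1+Tcf7+ cells 19 of 20 points lie below 0, from -1.10 for Fosb, and Hspa1a and Hspa1b lie below 0 in each population.

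Memory and cytotoxic genes had a median log2 ratio of -0.37 over the 25 of 35 with enough UMIs. Of the 25, 16 were below 0, 3 at least 2-fold higher and 1 at least 2-fold lower. Over all genes these shares were 55.3%, 1.99% and 1.69%. The median of the list was -0.09 without the top cell of each gene. It was -0.04 in cells with 2 or more UMIs of both Lef1 and Tcf7. Cd44 stood at 229 CPM in Ctrl and 126 in KD (-0.87, -1.33 to -0.40), and Eomes, a transcription factor of memory T cells, at 197 and 91.7 CPM (-1.10, -1.62 to -0.57). In cells without Ccl5, Cd44 stood at 51.4 and 70.7 CPM, a log2 ratio of 0.46 with an interval of -0.88 to 2.05, and Eomes stood at 239.8 and 67.6 CPM. Ccl5 stood at 1645 and 1266 CPM (-0.38), S100a10 at 580 and 349 CPM (-0.73) and Lgals1, or galectin-1, at 220 and 133 CPM (-0.73). Nkg7 was higher in KD, at 521 and 646 CPM (0.31, 0.05 to 0.58). Gzma, a granzyme, had 8 and 19 UMIs, or 26.2 and 26.0 CPM. In PD-1+ cells Gzma stood at 434 and 2295 CPM and in cytotoxic cells at 697 and 3520 CPM.

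The 3 genes at least 2-fold higher were Xcl1, Ifng and Gzmb, and few cells carried them. Xcl1, a chemokine for cross-presenting dendritic cells, had 35 UMIs in 16 Ctrl cells and 234 in 33 KD cells, or 115 and 320 CPM (1.48, 0.96 to 2.04), and 2 KD cells held 71 and 58 of these. Without the cell of each library with the most UMIs, the ratio was 1.18 (0.61 to 1.80). Ifng had 10 and 51 UMIs, with 31 in 1 KD cell, and Gzmb had 11 and 56, also with 31 in 1 cell, and without those cells their ratios were 0.48 (-0.89 to 2.08) and 0.38 (-0.81 to 1.74). Cells with at least 3 UMIs of the 3 genes together were 8 of 61 in Ctrl (13.1%, 5.84% to 24.2%) and 21 of 135 in KD (15.6%, 9.89% to 22.8%), a class set after the values were seen. Those 21 KD cells also held Npm1, a nucleolar protein, at 3169 CPM against 1466 CPM in the other KD cells, and Ncl, nucleolin, at 1285 against 379 CPM. Of their 486 Npm1 UMIs, 162 and 86 lay in 2 cells, and of their 197 Ncl UMIs, 82 and 41 lay in 2 cells. In the 8 Ctrl cells Npm1 stood at 1496 CPM against 1397 CPM in the other Ctrl cells. The 3 genes define this class, so their ratios without it follow from the choice and are not read. Without it the ratios of Npm1 and Ncl were 0.07 (-0.11 to 0.25) and -0.01 (-0.36 to 0.34).

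Genes of activation and exhaustion had a median of -0.22 over 13 of 26 genes. Ctla4, an inhibitory receptor, was the only one at least 2-fold lower, at 121 and 47.9 CPM (-1.34, -2.05 to -0.63), and none was 2-fold higher. Over all genes 1.69% were 2-fold lower and 1.99% 2-fold higher. In cells with under 3 UMIs of another lineage the Ctla4 ratio was 0.26 (-1.38 to 2.14). Nr4a2 and Nr4a3, nuclear receptors induced by antigen receptor signals, stood at 377 and 220 CPM (-0.77) and at 256 and 181 CPM (-0.50). With 2 or more UMIs of both Lef1 and Tcf7 the Nr4a2 ratio was -0.01 (-0.59 to 0.60). Tox stood at 315 and 338 CPM (0.10, -0.24 to 0.46), with a ratio of 0.81 (0.22 to 1.45) in cells without Ccl5 and -0.58 (-1.10 to -0.05) in cells with 3 or more Ccl5 UMIs. Of 21 genes of antigen receptor signaling, 14 had a ratio below 0 and none differed 2-fold, against 55.3% and 3.67% of all genes. Cd5 and Cd6, receptors that dampen the antigen receptor, were lower, at 167 and 89.0 CPM (-0.91, -1.46 to -0.35) and at 167 and 95.8 CPM (-0.80). With 2 or more UMIs of both Lef1 and Tcf7 the Cd6 ratio was -0.19 (-1.09 to 0.79). Themis, needed for signaling during T cell development, and Prkcq, a kinase downstream of the receptor, were higher, by 0.47 (0.19 to 0.75) and 0.51 (0.18 to 0.86).

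Interferon genes differed one by one. Of 33 type I interferon genes, 16 had enough UMIs, with 10 below 0, against 55.3% of all genes, and a median of -0.10. Ly6a, the stem cell antigen Sca-1, stood at 184 and 78.0 CPM (-1.23, -1.79 to -0.68) and Ifi27l2a at 256 and 126 CPM (-1.02). The Ly6a ratio was -0.63 (-1.51 to 0.25) in cells with under 3 UMIs of another lineage, and that of Ifi27l2a was -0.14 (-0.83 to 0.59) with 2 or more UMIs of both Lef1 and Tcf7. Samhd1, a deoxynucleotide hydrolase, stood at 197 and 281 CPM (0.51, 0.09 to 0.95) and Parp14 at 65.5 and 115 CPM (0.81, 0.09 to 1.59). Of 27 genes induced by interferon gamma or belonging to MHC class I, 21 had enough UMIs. Of these, 13 were below 0, against the same 55.3%, and none differed 2-fold, against 3.67% of all genes. H2-K1 and B2m, chains of MHC class I, stood at 2173 and 1670 CPM (-0.38) and 1865 and 1481 CPM (-0.33). Genes of glycolysis and growth had a median of 0.18 over 16 of 18, with 0 at least 2-fold higher and only Hk2 lower by that much. Over all genes these shares were 1.99% and 1.69%. Myc, which drives growth, stood at 85.2 and 133 CPM (0.64, 0.00 to 1.32). Npm1 stood at 1413 and 1823 CPM and Ncl at 390 and 569 CPM, with 162 and 82 UMIs in 1 KD cell each, and without the top cell their ratios were 0.26 (0.09 to 0.42) and 0.32 (0.00 to 0.64). The nucleolar genes Nolc1, Fbl, Nhp2 and Noc2l, the last 3 named after their values were seen, had ratios of 1.71, 1.57, 1.37 and 1.33. In PD-1+ cells they were -0.03, -0.07, -0.08 and -0.17. The Nolc1 interval was wide, 0.48 to 3.23. In the 21 KD cells with at least 3 UMIs of Xcl1, Ifng and Gzmb together, Nolc1 stood at 117 CPM and Fbl at 183 CPM. In the other KD cells they stood at 50.2 and 74.5 CPM. The Ctrl cells under that limit held 5 Nolc1 and 8 Fbl UMIs.

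Genes of the SLAM family, the family of the targeted receptor, were sparse. Ly9 had 16 UMIs in 15 Ctrl cells and 28 in 26 KD cells, or 52.4 and 38.3 CPM, with an interval of -1.39 to 0.53 around a log2 ratio of -0.45. These T cells did not carry the hairpin. Slamf6, found on stem-like CD8 T cells, stood at 68.8 and 73.9 CPM, and Sh2d1a, the adaptor SAP, at 184 and 103 CPM (-0.84, -1.36 to -0.31). Over the 5 of 8 genes with enough UMIs the median was -0.05, or 0.02 under TMM scaling.

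Antigen receptor V segments were read in few cells. In KD, 28 Lef1+Tcf7+ cells could be given a Trbv segment and 14 segments were seen, the most used in 4 cells. Of the same number of PD-1+ cells, 11.8 segments would be seen on average. In Ctrl, 9 cells had 5 segments, where 5.08 would be seen among as many PD-1+ cells.

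RNA of other cell types was present in the Lef1+Tcf7+ cells, and it differed between the libraries. S100a8 and S100a9, abundant RNAs of neutrophils, together had 6 UMIs in 4 Ctrl cells and 528 UMIs in 87 of 135 KD cells, of which 293 and 88 lay in 2 cells. Without those 2 cells 147 UMIs remained. S100a9 had a UMI in 48.1% of the Lef1+Tcf7+ cells of KD and in 47.4% of macrophages and 43.7% of B cells there, against 3.28%, 12.0% and 11.5% in Ctrl. Over 8 neutrophil markers the summed level was 78.7 CPM in Ctrl, with 3 markers at 0, and 923 CPM in KD, with 0 at 0. Class II genes were higher in Ctrl, and 1 Ctrl cell held more than any other. Cd74, H2-Aa, H2-Ab1 and H2-Eb1 had 350 UMIs in Ctrl, of which 205 lay in 1 cell that also had 13 UMIs of C1qc, 15 of C1qb and 35 of Lyz2, and 47 in a second cell. They had 223 UMIs in KD, at most 7 in 1 cell. Without the cell of each library with the most UMIs of the gene, the ratio was -0.77 (-1.43 to -0.11) for Cd74, in place of -2.002, and -0.92 (-1.48 to -0.35) for H2-Eb1, in place of -2.16. Cd14, with 38 of its 47 KD UMIs in 1 cell, was at -0.09 without the top cells.

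Summed over 10 macrophage markers the level was 773 CPM in Ctrl, with 1 marker at 0, and 508 CPM in KD, with 0 at 0. For 8 B cell markers it was 206 and 127 CPM, with 4 and 3 at 0, for 9 dendritic cell markers 760 and 237 CPM, with 3 and 3 at 0, and for 12 liver, endothelial and tumor markers 170 and 175 CPM, with 9 and 8 at 0. Pecam1, which T cells also express, gave 50 of the 52 UMIs of the liver and tumor sum in Ctrl and 89 of 128 in KD. The 10 NK cell markers, of which T cells also express Eomes and Txk, gave 842 and 721 CPM, with 1 and 2 at 0. All 7 red cell and platelet markers were at 0 in both libraries. Of 8 measured genes of unconventional T cells, 6 were at 0 in Ctrl and 3 in KD, with 14 and 54 UMIs in all. Leaving out every Lef1+Tcf7+ cell with 3 or more UMIs of the macrophage, neutrophil, B cell, dendritic cell or liver and tumor list kept 35 Ctrl and 58 KD cells. They were 1.27% and 4.83% of all 2754 and 1201 CD8 T cells, which were not filtered in this way. On the neutrophil list 38 KD cells reached 3 UMIs. After the 2 cells with 293 and 88 UMIs of S100a8 and S100a9, the next held 4. A cell left out is thus not shown to be of another lineage. The part of this RNA in the differences above was not tested beyond these values.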

How the data were processed

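Single-cell 3' RNA libraries were made from CD45+ cells of pooled metastases, 1 library per group, and groups followed the hairpin given in the labels. The authors deposited raw counts of UMIs for each gene in each barcode, from Cell Ranger 7.1.0 with GRCm39. The submitters' notes also name Seurat 5.1.0 in R 4.4.1. The annotation and the treatment of introns are not given in the sources used here, and the files' other columns hold barcodes and gene identifiers. A cell was kept if it had 200 to 6000 genes, no more than 30000 UMIs and no more than 10% of them mitochondrial. These limits were the only treatment of doublets in the main values.

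UMIs were summed per population and library and scaled to CPM. With 1 library per group no test was made. Shares have Clopper-Pearson, levels Poisson and log2 ratios conditional binomial exact 95% intervals, all for counting error only. Intervals on differences of shares were combined from the exact intervals of both libraries and are approximate. Ratios were read for genes with at least 50 UMIs, with 2-fold as the limit. TMM factors came from edgeR 4.0.16 in R 4.3.3, and other steps used Python 3.11.15 with numpy 2.4.6, scipy 1.17.1 and pandas 2.3.3. To compare how often a gene was seen, each cell was thinned to 1500 UMIs without shallower cells (0 Lef1+Tcf7+ cells, 5 Ctrl and 0 KD PD-1+ cells, 4 Ctrl and 1 KD cytotoxic cells, 2 macrophages in each library, and 2 Ctrl and 13 KD B cells). Macrophages had 2 or more UMIs of Csf1r and of C1qa and B cells 2 or more of Cd79a, without Cd3d, Cd3e, Cd3g or the other's marker. PD-1+ cells passed the same exclusions as the Lef1+Tcf7+ cells but had a Pdcd1 UMI.

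The members and gene lists were chosen with earlier results of these data known. Named genes are those of the lists (quiescence, recirculation, cytokine sensing and survival, memory and cytotoxic, activation and exhaustion, antigen receptor signaling, type I interferon, interferon gamma and MHC class I, immediate early and stress, glycolysis and growth, SLAM family, and markers of other cells), the 10 highest and 10 lowest ratios of KD over Ctrl, and the 15 highest and 15 lowest over PD-1+ cells in both libraries. Rankings added 0.5 CPM and omitted genes of the mitochondrion, ribosome, antigen receptor segments and sex, and genes without a name. Of the listed genes of unconventional T cells, 4 did not match a symbol in the files. On simulated counts for the comparison of KD with Ctrl in the Lef1+Tcf7+ cells (3321 genes), all 97 genes changed 2-fold came out in the right direction and 50.5% of them past 2-fold, as did 99.0% of 103 genes changed 4-fold and 1.03% of unchanged genes, and 96.1% of intervals held the true value. The simulated counts were Poisson draws from the pooled levels, without variation between cells or mice. The intervals rest on the same model, so these rates do not cover genes whose UMIs lay in few cells. Alternatives were other gates, cell filters, count limits and scalings. The alternatives without top cells, without likely doublets, without Xcl1, Ifng and Gzmb cells and within Ccl5 classes were chosen after seeing the data. The alternative without top cells took the top cell from a gene's UMIs and kept the totals. The top cell is a larger part of 61 Ctrl than of 135 KD cells, so its ratios lean upward for evenly spread genes. Results that need certain genes, and 1 alternative gate that used one of them, are not reported here.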

Additional observations from a re-analysis of the deposited data

Results flagged for a closer look

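The CPM of Xcl1 differed in opposite directions between the libraries in 2 populations of CD8 T cells, and the shares of cells with an Xcl1 UMI did not follow it. In Lef1+Tcf7+ cells it stood at 115 CPM in Ctrl and 320 in KD, a log2 ratio of 1.48 (0.96 to 2.04). In cytotoxic CD8 T cells it was -1.61, from 240.2 to 78.5 CPM. An Xcl1 UMI was seen in 26.2% and 24.4% of Lef1+Tcf7+ cells, and in 14 of 243 (5.76%) Ctrl and 13 of 116 (11.2%) KD cytotoxic cells. At 1500 UMIs per cell the shares were 13.1% and 11.9%, and 3.77% and 7.83%. In PD-1+ cells it was 0.21, from 131 to 152 CPM. The difference between populations was not tested, since each library was 1 pool of mice, and 2 KD cells held 71 and 58 of the 234 Xcl1 UMIs.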

How the results depend on the processing

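The higher share of Lef1+Tcf7+ cells in KD kept its direction under all gates and filters tried. The difference of 9.03 points of CD8 T cells became 12.0 with either Lef1 or Tcf7 required, 5.51 with 2 or more UMIs of each, 3.56 without cells carrying 3 or more UMIs of another lineage, and 2.93 when cells were thinned first. For the lineage value, the CD8 T cells in the denominator were not filtered in this way. The counts of genes past 2-fold depended on the limit on low counts: 333 higher and 189 lower at 20 UMIs, 2 and 4 at 200 UMIs, and 4753 and 2650 with no limit, against 66 and 56. They were 104 and 32 without the top cell of each gene and 16 and 21 without cells of another lineage. The count lower in KD was 29 with 2 or more Lef1 and Tcf7 UMIs, 36 without cells rich in class II or S100a8 and S100a9 RNA, and 21 in cells without Ccl5, and the count higher in KD was 31 in cells with 3 or more Ccl5 UMIs. Fewer cells enter the fits by gate, lineage or Ccl5 class, and beyond that the cause was not tested.

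Some single genes turned direction, most at few UMIs. With 2 or more Lef1 and Tcf7 UMIs the log2 ratio was 0.84 for Cd74, 0.27 for H2-Aa, 0.0750 for H2-Ab1 and -1.13 for Ifng. Without cells carrying 3 or more UMIs of another lineage list it was 0.06 for Ccr7 (-0.61 over all cells), 0.26 for Ctla4, 0.65 for H2-Aa, -0.14 for Ifitm2, -0.29 for Ifng and 0.13 for Ptprk. Without the cells rich in class II or S100a8 and S100a9 RNA, which leaves out cells by these same genes, it was 0.0825 for Cd74 and 0.22 for H2-Aa, and without the top cells it was -0.0897 for Cd14. Without the Xcl1, Ifng and Gzmb cells, which are defined by these 3 genes so that the lower values follow from the choice, it was -0.66 for Xcl1, -1.48 for Ifng and -0.57 for Gzmb. In cells without Ccl5 it was 1.52 for C1qc, 0.17 for Cd74, 0.40 for H2-Ab1, -1.48 for Ifng and 0.84 for Ptprk, and in cells with 3 or more Ccl5 UMIs it was -0.62 for Gzmb. Of the 554 gene ratios recomputed, 517 kept their direction. They include scalings that add the same constant to every ratio and overlapping sets of the same cells, so this count was partly fixed in advance. No paired analysis was possible because each group had 1 library, and for the same reason no replicate could be left out. At 61 and 135 cells, depth limits every ratio of genes under about 50 UMIs.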
